A study of Mus musculus with 8 samples.

Results

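The imprinted H19-Igf2 locus makes 2 miRNA hairpins, miR-675 and miR-483, and their 4 mature strands are mmu-miR-675-5p, mmu-miR-675-3p, mmu-miR-483-5p and mmu-miR-483-3p (mmu, for mouse, is left out below). They were chosen by name, as the probes annotated to these 4 of the 1881 miRNAs on the array. The arrays read miRNA from exosomes, small vesicles released by cells, which were isolated on size-exclusion columns from the amniotic fluid of mice. Of the 8 arrays, 4 carried samples from preterm birth induced with lipopolysaccharide (LPS, the inflammatory component of the bacterial outer membrane), which was given into the abdomen at 100 μg/kg on day 14 of pregnancy, with birth about 48 h later. The other 4 carried samples from cesarean sections, for which the labels give no injection or vehicle. Neither group has a stated strain or genotype, and the labels place every sample at day 17 of pregnancy, which cannot be matched exactly to the stated interval after injection. They do not say whether replicates came from separate animals, so the p-values speak of the spread among these 8 samples, which may be technical.

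In mice, H19 and Igf2 lie next to each other on the distal part of chromosome 7 and share enhancers, with H19 expressed from the maternal and Igf2 from the paternal copy. H19 is a long noncoding RNA, abundant in placenta and in fetal liver and muscle, and miR-675 is cut from it. Igf2 encodes insulin-like growth factor 2, a main driver of fetal and placental growth, and miR-483 lies in one of its introns. Mouse miR-675 is known to restrain placental growth and to target the receptor gene Igf1r, and miR-483-3p has been described in human cells as an inhibitor of apoptosis that acts on BBC3.

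All 4 mature strands matched RefSeq (GRCm38.p6), and their sequences are shown because the seed sets what a miRNA can target and the rest sets what a probe can read. Each runs 5′ to 3′, with the seed (bases 2 to 8) in capitals.
miR-675-5p: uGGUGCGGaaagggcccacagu
miR-675-3p: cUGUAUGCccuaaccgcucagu
miR-483-5p: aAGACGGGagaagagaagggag
miR-483-3p: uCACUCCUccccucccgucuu
The 4 seeds differ from each other, and none of them occurs at bases 2 to 8 of any other of the 1679 mouse mature miRNA names in RefSeq. The strands of miR-483 are lopsided in composition. Purines (A or G) make up 95.5% of miR-483-5p and 9.5% of miR-483-3p, against 63.6% of miR-675-5p and 36.4% of miR-675-3p.

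The hairpins show where the strands sit, with the mature strands in capitals.
Mir675: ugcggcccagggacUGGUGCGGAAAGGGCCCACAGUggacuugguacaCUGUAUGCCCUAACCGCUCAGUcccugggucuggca
Mir483: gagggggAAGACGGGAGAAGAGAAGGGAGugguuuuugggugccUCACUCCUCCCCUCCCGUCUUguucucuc
On GRCm38.p6, the Mir675 hairpin of 84 bases lies at chr7:142577064-142577147 on the minus strand, inside the H19 gene. The Mir483 hairpin of 73 bases lies at chr7:142654924-142654996 on the same strand, inside Igf2. Along the chromosome the annotated genes run Nctc1, H19 with Mir675, Gm33148, Igf2 with Mir483, Igf2os and Ins2.

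Each strand had 2 or 4 probes of different length, all complementary to its 3′ end, and the longest of each is shown 5′ to 3′ with the bases beyond the shortest probe in capitals.
miR-675-5p probe: actgtgggccCTT
miR-675-3p probe: actgagcggttaggGCA
miR-483-5p probe: ctcccttctcTTC
miR-483-3p probe: aagacgggaggggaggaG
These probes read bases 10 to 22 of miR-675-5p, 6 to 22 of miR-675-3p, 10 to 22 of miR-483-5p and 4 to 21 of miR-483-3p. The stretch read by each of the 14 probes occurs in no other mature mouse miRNA of RefSeq in full. The probes of both 5p strands read none of the seed, so those signals rest on the 3′ part alone.

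Scanner signals were background-subtracted intensities, which were scaled per array and put on the log2 scale with a floor of 3.75, as set out under the processing. Over the whole series, 403 to 506 miRNAs per array stood well above background in LPS samples and 412 to 534 in cesarean samples. The 75th percentile of the signal ranged from 7.72 to 8.67 (log2) in LPS samples and from 7.74 to 8.81 in cesarean samples, and spike-in probes lay between 10.83 and 11.00 against 10.93 and 11.04. All 8 arrays shared 1 slide, with LPS samples in row 1 and cesarean samples in row 2, so that slide row and group cannot be told apart. The number of arrays limits the precision of every value.

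mmu-miR-675-5p, the strand on the 5′ side of the H19 hairpin, was not well above background on any of the 8 arrays with any of its 4 probes. Its background-subtracted signals lay between -3.90 and 3.41 over all probes and arrays. No fold is given, because both groups were below background, and it was not tested. The other 3 strands were well above background on all 8 arrays and entered the comparison of 470 miRNAs.

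mmu-miR-675-3p, the other strand of the same hairpin, had scaled signals (log2) of 9.61, 8.48, 8.32 and 8.98 in LPS replicates 1 to 4, against 8.73, 9.46, 9.54 and 9.88 in cesarean replicates 1 to 4. LPS replicate 1 stood among the cesarean samples and cesarean replicate 1 among the LPS samples, so that the groups overlapped. The mean was 8.85 ± 0.58 in LPS samples and 9.40 ± 0.49 in cesarean samples (SD, n = 4 each). That is a log2 difference of -0.55 (SE 0.35, 95% confidence interval -1.33 to 0.22), or 0.681 of the cesarean level (0.398 to 1.16). It did not pass the threshold of 0.05 in limma's test (adjusted p = 0.343), nor in a two-sided exact permutation test (p = 0.2). Signals before scaling, each the mean over the spots of an array, ranged from 327 to 636 in LPS samples and from 568 to 879 in cesarean samples. The spread between the 7 spots of an array was 1.81% to 10.03%. With the total signal per miRNA that the scanner software computes, in place of the brightest probe, the difference was -0.11 (limma adjusted p = 0.879).

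mmu-miR-483-5p, the purine-rich strand of the Igf2 hairpin, measured 7.19, 8.33, 8.15 and 8.43 (log2 scaled signal) in LPS replicates 1 to 4, against 8.66, 8.10, 8.85 and 8.46 in cesarean replicates 1 to 4. LPS replicate 1 was the lowest of the 8 arrays, and the other 3 LPS samples lay above the lowest cesarean sample. LPS samples averaged 8.02 ± 0.57 and cesarean samples 8.52 ± 0.32 (SD, n = 4 each). The log2 difference was -0.49 (SE 0.32, 95% confidence interval -1.19 to 0.21), or 0.710 of the cesarean level (0.437 to 1.15), with a limma adjusted p of 0.351 and a two-sided exact permutation p of 0.171. Without LPS replicate 1 the difference was -0.22 (limma adjusted p = 0.618). Signals before scaling ran from 119 to 412 in LPS samples and from 285 to 648 in cesarean samples.

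mmu-miR-483-3p, the pyrimidine-rich strand, had signals before scaling of 29.8 to 66.4 in LPS samples and 38.5 to 71.8 in cesarean samples. Its scaled log2 signals were 6.13, 5.02, 5.52 and 5.41 in LPS replicates 1 to 4, against 4.59, 5.85, 6.35 and 6.35 in cesarean replicates 1 to 4. Cesarean replicate 1 lay below every LPS sample, while the other 3 cesarean samples lay above LPS replicates 2 to 4. Means were 5.52 ± 0.46 in LPS samples and 5.78 ± 0.83 in cesarean samples (SD, n = 4 each). The log2 difference of -0.27 (SE 0.41, 95% confidence interval -1.18 to 0.65) had a limma adjusted p of 0.738 and a two-sided exact permutation p of 0.543. Leaving out cesarean replicate 1 gave -0.67 (limma adjusted p = 0.268), and leaving out cesarean replicate 3 or 4 gave -0.080 or -0.078. It was -0.47 without LPS replicate 1 and -0.10 without LPS replicate 2.

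**Figure D1:**
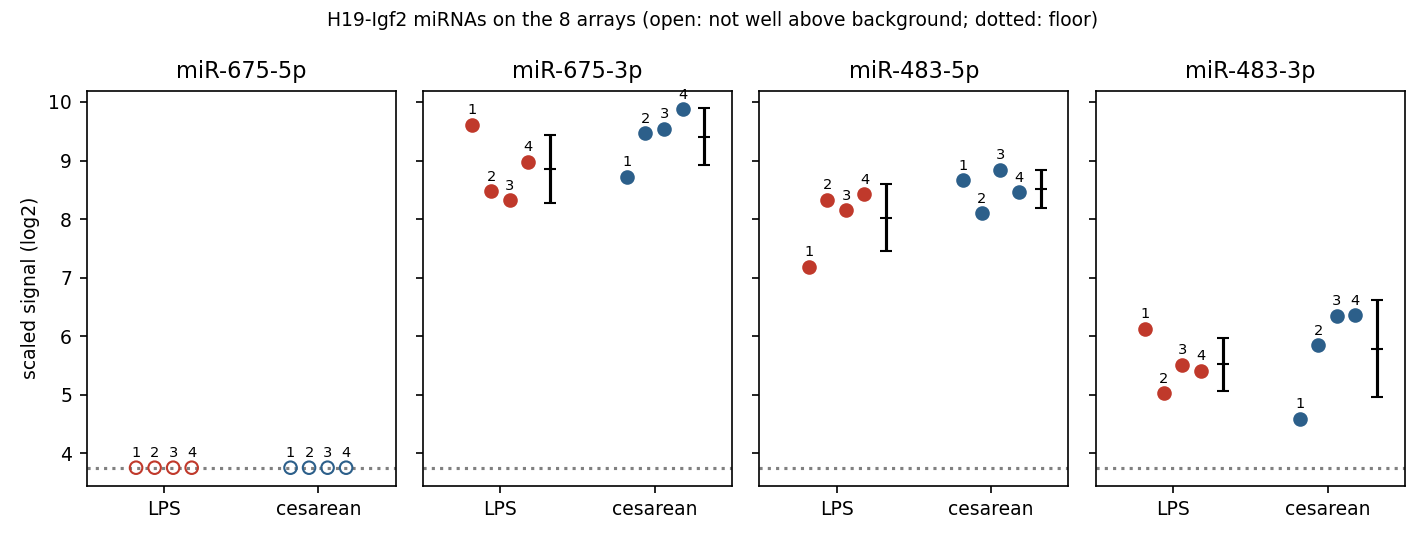
Scaled signal (log2) of the 4 strands on each array, LPS samples (red) left of cesarean samples (blue), with replicate numbers and the mean ± SD in black. miR-675-5p sits at the floor of 3.75 on all 8 arrays, and the groups overlap for the other 3 strands, with replicate 1 of each group standing apart from its own group for miR-675-3p and miR-483-3p.

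Of the 3 strands tested, 0 passed the limma threshold and 0 had groups that did not overlap. Among all 470 miRNAs tested, 23 passed (4.89%), 12 of them higher in LPS samples (2.55%) and 11 lower (2.34%), and 80 had groups that did not overlap (17%). At an unadjusted p under 0.05 the counts were 0 of 3 strands and 118 of 470 miRNAs (25.1%). Ranked by p, miR-675-3p, miR-483-5p and miR-483-3p were at places 194, 198 and 338. The median difference over all tested miRNAs was -0.057, with the middle 50% between -0.43 and 0.36. The count of 23 became 79 without LPS replicate 1, 4 and 7 without LPS replicates 2 and 3, and 5, 4, 3 and 9 without cesarean replicates 1 to 4. All 3 strands had differences below 0, and those of miR-675-3p and miR-483-5p lay below that middle range.

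The confidence intervals of the 3 strands reach from a difference of -1.33 to one of 0.65, and they include 0 in each case. A p that misses the threshold does not show equal levels. The spread between samples of a group (pooled SD, log2) was 0.54 for miR-675-3p, 0.46 for miR-483-5p and 0.67 for miR-483-3p, against a median of 0.42 over all tested miRNAs. It was larger than that of 82.6% of tested miRNAs for miR-483-3p, 67.9% for miR-675-3p and 56.2% for miR-483-5p. Some tested miRNAs sat at the floor on part of the arrays, which can narrow their spread, while these 3 strands did not.

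Probes of different length for 1 strand followed each other over the arrays, with Pearson r of at least 0.989 between the 3 probes of miR-675-3p measured on all arrays, 0.986 between the 4 probes of miR-483-5p and 0.947 between the 2 of miR-483-3p. They share their target and their hybridization. For miR-675-3p the log2 difference was -0.68 with the 15-base probe, -0.57 with the 16-base probe and -0.55 with the 17-base probe. Its shortest probe, of 14 bases, was well above background on 3 arrays alone, LPS replicate 1 and cesarean replicates 2 and 4, which were among the 4 arrays with the brightest 17-base signal. miR-483-5p gave -0.60, -0.49, -0.48 and -0.49 with probes of 10, 11, 12 and 13 bases. For miR-483-3p the probes disagreed in size, with -0.54 for 17 bases and -0.27 for 18 bases. All 9 probe values lay below 0, and limma adjusted p-values ran from 0.252 to 0.738.

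**Figure D2:**
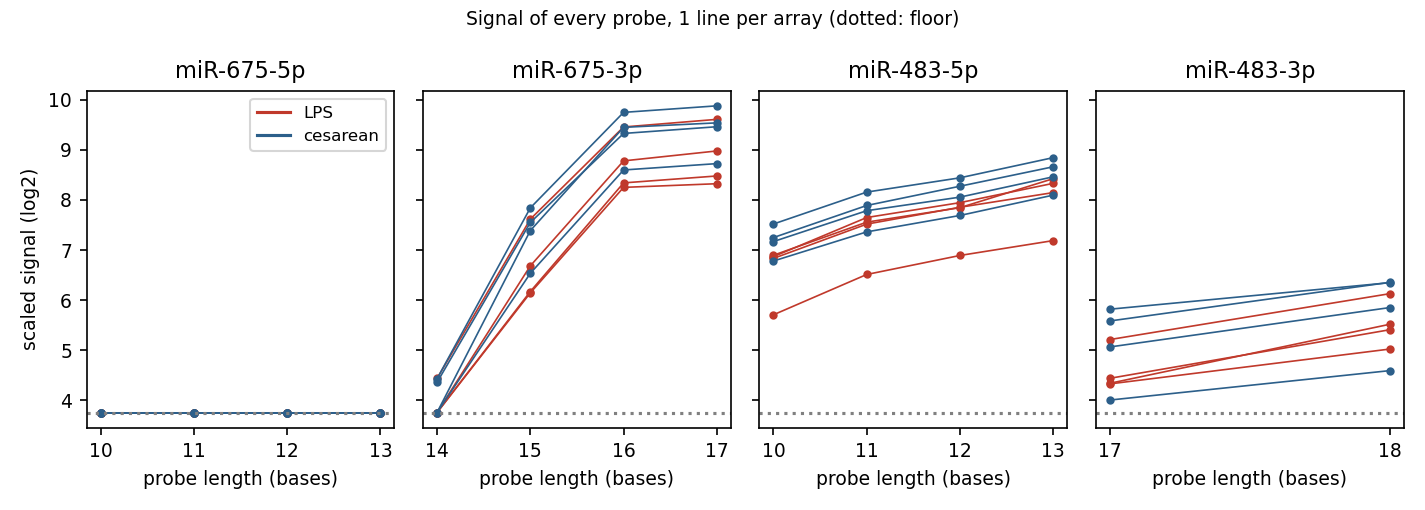
Scaled signal (log2) of every probe against its length in bases, with 1 line per array, red for LPS and blue for cesarean. All 4 probes of miR-675-5p stay at the floor, as does the 14-base probe of miR-675-3p on most arrays. At the other lengths the order of the arrays is nearly the same within each of the other strands.

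**Figure D3:**
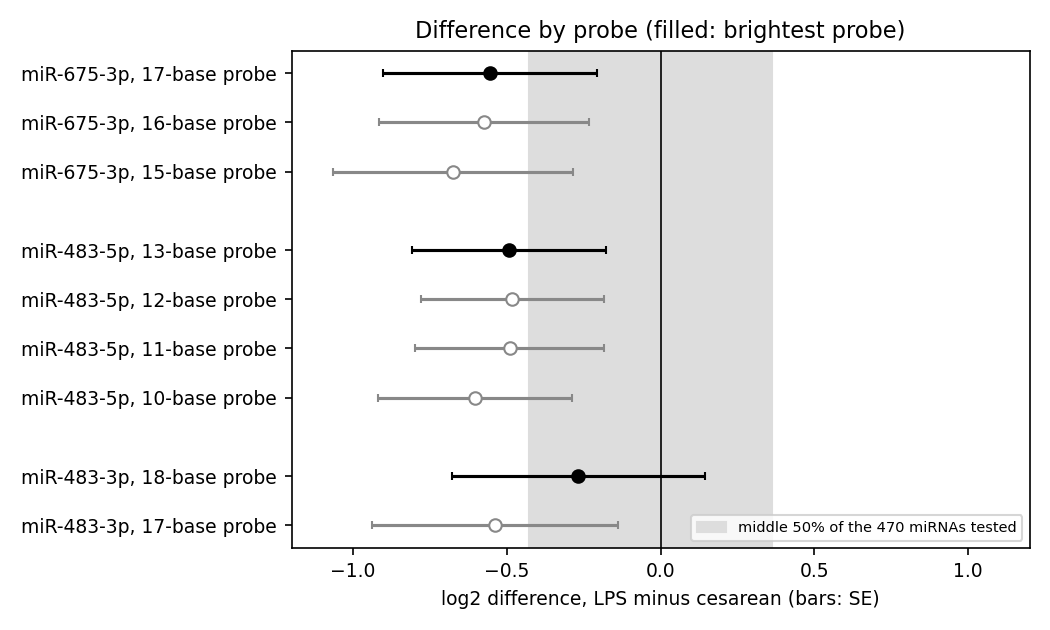
Log2 difference, LPS minus cesarean, for each probe measured on all arrays, with bars of 1 SE and the brightest probe of each strand filled. All 9 points lie left of 0, from -0.68 to -0.27, and the grey band marks the middle 50% of the 470 miRNAs tested.

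Strands of the locus were next set against each other within each array, over the 3 pairs that were well above background on every array. The array-to-array profiles of miR-675-3p and miR-483-3p, which come from different hairpins, ran together, with Pearson r = 0.81 over the 8 arrays (exact permutation p = 0.0189, 0.0566 after adjustment over the 3 pairs). Spearman's rho was 0.81 (exact permutation p = 0.0218, adjusted 0.0653), so that the relation missed the threshold after adjustment. Leaving out LPS replicates 2 and 3, the arrays farthest from the median of miR-675-3p, gave r = 0.95. After each group was centred on its own mean, r was 0.83, and without scaling between arrays it was 0.72. Among 335 other miRNAs measured on all arrays, miR-483-3p held place 11 in likeness to miR-675-3p, and miR-675-3p place 7 in likeness to miR-483-3p.

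The strands of the miR-483 hairpin had no positive correlation. miR-483-5p and miR-483-3p had r = -0.22 (exact permutation p = 0.625, adjusted 0.757) and rho = 0 (exact permutation p = 1), and r was -0.43 without LPS replicate 1 and cesarean replicate 3. Between miR-675-3p and miR-483-5p r was -0.16 (exact permutation p = 0.757, adjusted 0.757) and rho was 0.071 (exact permutation p = 0.882), and r was -0.31 without LPS replicates 2 and 3. Replicate 1 of each group showed the split between the strands. In LPS replicate 1, miR-675-3p was the second highest of the 8 arrays and miR-483-3p the third highest, while miR-483-5p was the lowest. In cesarean replicate 1, miR-483-3p was the lowest and miR-483-5p the second highest.

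**Figure D4:**
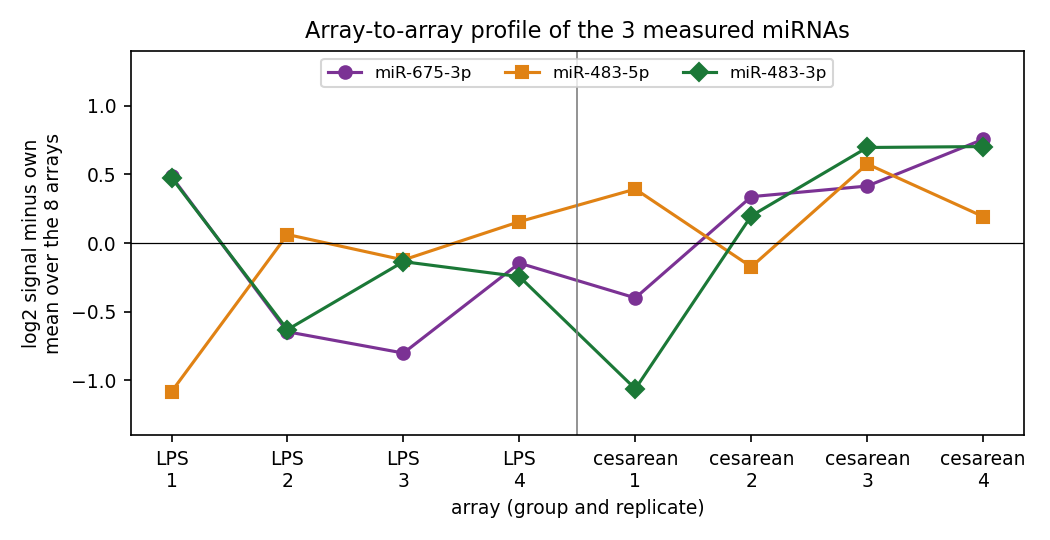
Log2 signal of each strand minus its own mean over the 8 arrays, LPS arrays left and cesarean arrays right of the grey line. miR-675-3p and miR-483-3p follow each other (r = 0.81), and miR-483-5p moves the other way in replicate 1 of both groups.

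Differences between 2 strands on the same array do not depend on the scaling factor of that array, and comparing them between groups asks whether the strands changed unequally. The difference miR-483-5p minus miR-483-3p was 1.06, 3.31, 2.63 and 3.02 (log2) in LPS replicates 1 to 4, against 4.07, 2.25, 2.50 and 2.11 in cesarean replicates 1 to 4. LPS replicate 1 was the lowest and cesarean replicate 1 the highest of all arrays, and the other 6 arrays lay between them. The group difference was -0.23 (two-sided exact permutation p = 0.8). For miR-675-3p minus miR-483-3p the mean was 3.33 ± 0.35 in LPS samples and 3.62 ± 0.39 in cesarean samples (SD, n = 4 each), a group difference of -0.29 (two-sided exact permutation p = 0.343). For miR-675-3p minus miR-483-5p the group difference was -0.060 (two-sided exact permutation p = 0.914). All 3 adjusted p-values were 0.914, and the smallest p that 4 against 4 arrays can give is 0.0286.

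By a fixed rule, the 5 miRNAs with the highest Pearson r to each strand were named, out of the 335 measured on all 8 arrays. These r values describe 8 arrays that share 1 slide and were picked as the highest of many, so they carry no test. miR-483-5p had the closest, namely miR-6995-5p (r = 0.967), miR-7088-5p (0.942), miR-3102-5p.2-5p (0.935), miR-5119 (0.934) and miR-6973b-5p (0.931). In all, 13 of 335 miRNAs had r over 0.9 with miR-483-5p, against 1 with miR-675-3p and 2 with miR-483-3p. For the 3 of these 5 with the most purines in the stretch read by the probe, the RefSeq sequences are shown with that stretch in capitals, beside which the purine run of miR-483-5p above can be set.
miR-6995-5p: cugggaguaGAAGGGGGAAACCA
miR-7088-5p: gcaaguggugGUGAGGAGGGGAAAC
miR-6973b-5p: guagguaugGGGAGAGGACAGGGA
Purines made up 85.7%, 86.7% and 93.3% of the read stretch of these 3, against 100% for miR-483-5p.

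That composition was then set against likeness over all 335 miRNAs, a split chosen after the values were seen. Of the 53 miRNAs whose read stretch held 80% purines or more, 46 had a positive r with miR-483-5p, with a median of 0.69. Of the 79 with under 50% purines, 18 had a positive r, with a median of -0.26. The 203 between them had a median r of -0.078, and 91 were positive. miR-5119, with 53.8% purines, was among the 5 closest, so high likeness was also seen at a middling purine share. Whether base composition plays a part in the profile of miR-483-5p was not tested.

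**Figure D5:**
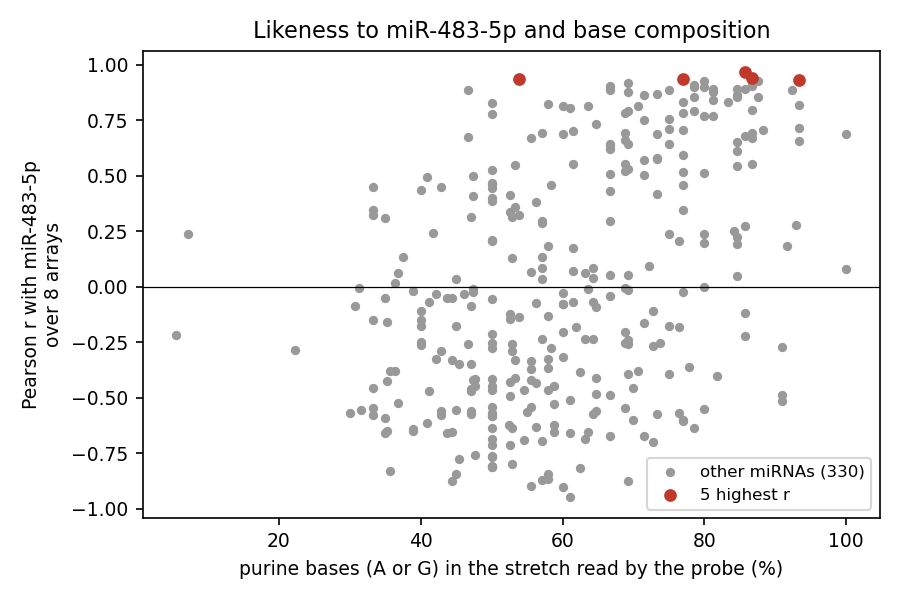
Pearson r with miR-483-5p over the 8 arrays against the purine share (%) of the stretch read by the brightest probe, 1 point for each of 335 miRNAs, with the 5 highest in red. Points at 80% or more lie mostly above 0 (46 of 53), and those under 50% mostly below (18 of 79 above).

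miR-483-3p was closest to miR-1187 (r = 0.964), miR-3082-5p (0.946), miR-574-5p (0.881), miR-6988-5p (0.854) and miR-466i-5p (0.833). The first 3 of these hold runs of alternating U and G, and they are shown, with the read stretch in capitals, because miR-483-3p itself has no such run.
miR-1187: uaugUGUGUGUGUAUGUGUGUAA
miR-3082-5p: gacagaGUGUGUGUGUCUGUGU
miR-574-5p: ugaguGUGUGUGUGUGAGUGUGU
The read stretch of these 3 and of miR-466i-5p was 84.2% to 100% G or U, against 38.9% for miR-483-3p. Over the 20 miRNAs closest to miR-483-3p the median share was 58.0%, against 58.8% in the other 315. miR-675-3p was closest to miR-212-3p (r = 0.904), miR-3081-5p (0.873), miR-2137 (0.855), miR-5131 (0.853) and miR-3082-5p (0.853), so that miR-3082-5p was shared with miR-483-3p. No miRNA among these 14, chosen for likeness to strands with a lower mean in LPS samples, passed the limma threshold between the groups. All 14 had a lower mean in LPS samples, with log2 differences from -0.97 (miR-5119, adjusted p = 0.166) to -0.12 (miR-212-3p, adjusted p = 0.847). Over all 470 miRNAs tested, 4.89% passed and 54.5% had a lower mean in LPS samples.

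Further imprinted loci gave the context of the locus. Of 6 strands from the Mest and Gnas regions, 4 were not well above background on any array and 0 of the other 2 passed. Their log2 differences were -0.64 for miR-335-5p, made from Mest (limma adjusted p = 0.326), and 0.091 for miR-296-5p, from the Gnas region (adjusted p = 0.864). Among all 470 miRNAs tested, 23 (4.89%) passed, and 256 (54.5%) had a lower mean in LPS samples. The large Dlk1-Dio3 cluster, expressed from the maternal copy of mouse chromosome 12, was read by a fixed list that does not hold all its strands. In that list 0 of 30 tested strands passed, and 23 had a higher and 7 a lower mean in LPS samples. The higher means numbered 18 without scaling between arrays, with spike-in scaling or without LPS replicate 3. The median over the listed strands of the cluster was 0.35, against -0.057 over all miRNAs tested, the opposite sign to the 3 strands of the H19-Igf2 locus. It was 0.14 without LPS replicate 3, 0.19 with the floor doubled, 0.21 with the mean of all probes, 0.11 with normexp background correction, and 0.62 with the total gene signal. Within that list the smallest p-values belonged to miR-136-5p (0.88, limma adjusted p = 0.0516) and miR-434-3p (0.98, adjusted p = 0.0567). miR-136-5p was well above background on 6 arrays and averaged 4.68 in LPS samples and 3.80 in cesarean samples, next to the floor of 3.75, and its difference was 0.065 with the floor doubled and 1.14 with the floor halved.

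miRNAs that target the IGF1 receptor, through which IGF2 signals, were described next. Of 7 such miRNAs 0 passed, beside 4.89% of all 470 miRNAs tested, and their median difference was 0.090, with no stable sign. It was -0.057 without scaling between arrays, -0.033 with spike-in scaling, -0.033 without LPS replicate 1, and -0.024 with the floor doubled or with detection on all 8 arrays asked for. The smallest p-values belonged to miR-145a-5p (0.71, limma adjusted p = 0.166) and miR-503-5p (0.65, adjusted p = 0.341). H19 RNA binds let-7, a family that restrains growth genes. All 9 let-7 strands had a higher mean in LPS samples, with a median of 0.62, and 1 passed. The higher means numbered 7 of 9 without scaling between arrays or with spike-in scaling, and 8 of 9 without LPS replicate 1. Over all 470 miRNAs tested, 256 (54.5%) had a lower mean in LPS samples, the median was -0.057, and 12 (2.55%) passed as higher. let-7d-5p averaged 9.44 in LPS samples and 8.14 in cesarean samples (log2), a difference of 1.30 (SE 0.27, limma adjusted p = 0.0294), and it passed in 12 of the 22 alternatives run. It missed the threshold without any one of LPS replicates 2 and 3 and cesarean replicates 1 to 4 (limma adjusted p from 0.0592 to 0.0841), without scaling between arrays (0.372), with spike-in scaling (0.390), with the total gene signal (0.0576) and when slide column was blocked (0.124).

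Markers of cells that could release vesicles into the fluid were read on the same arrays, with summed levels on the log2 scale. Beside the 2.55% of all tested miRNAs that passed as higher in LPS samples, 6 of the 17 tested markers did so, and they are named here although they were picked after their values were seen. With no scaling, with spike-in scaling or when slide column was blocked, 0 miRNAs of any kind passed as higher. The 5 epithelial markers were all tested and 3 passed (miR-200c-3p, miR-200b-3p and miR-200a-3p). All 5 together summed to 10.49 to 11.13 in LPS samples, against 9.51 to 9.94 in cesarean samples, without overlap. Among single miRNAs, 80 of the 470 tested (17%) had groups that did not overlap. Of the 4 red blood cell markers, 3 were tested and 1 passed, miR-144-3p, which no cesarean array measured well above background and which entered the test through the LPS arrays alone. These markers summed to 13.78 to 14.92 in LPS samples, against 13.09 to 13.94 in cesarean samples. That sum was nearly all miR-451a, which stood at 14.90 in LPS replicate 1, where the sum was 14.92. miR-451a itself did not pass (log2 difference 0.99, limma adjusted p = 0.0814). LPS replicate 1, where miR-483-5p was lowest, had the highest sum of the epithelial and red blood cell lists, and also of the IGF1 receptor list (10.48). Over the 8 arrays miR-483-5p had a negative r with the sum of every list, from -0.265 (other imprinted loci) to -0.77 (red blood cells). Striated muscle, a fetal tissue rich in H19 and Igf2, had 0 of 4 markers past the threshold, and sums of 9.94, 7.12, 10.85 and 7.38 in LPS replicates 1 to 4, against 8.12, 9.15, 8.55 and 8.57 in cesarean replicates 1 to 4. For liver, miR-122-5p was measured on 6 arrays and miR-122-3p was not well above background on any, and the sum was 5.54 to 9.83 in LPS samples, against 4.75 (both markers at the floor) to 7.16 in cesarean samples. Leukocyte markers summed to 9.54 to 10.09 in LPS samples and 9.59 to 9.91 in cesarean samples, with 2 of 4 tested markers past the threshold (miR-142a-3p and miR-155-5p). The other 2 tested did not follow them, with log2 differences of -0.45 for miR-342-3p (limma adjusted p = 0.367) and 0.090 for miR-223-3p (adjusted p = 0.874). miR-223-3p was the largest part of the leukocyte sum. In bulk exosome RNA, fewer vesicles of one cell type and less miRNA per vesicle cannot be told apart, and the part of these markers in the values of the 4 strands was not tested.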

How the data were processed

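The spot intensity values were deposited as read by the authors with Agilent Feature Extraction (10.7.1.1 per the file headers, 9.1 per the submitters' processing notes), on a linear scale with background taken off and the arrays not yet normalized to each other. A deposited table of log2 values, normalized by the authors in a way the labels do not describe, was an alternative. Each file holds 58594 spots, 56430 of them for miRNAs, none of which was saturated. Per the labels' protocols, Cy3-labelled cRNA was prepared with a linear amplification kit, a step for mRNA; no source used here gives the labelling of miRNA.

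Controls were left out, as were the 2.99% to 3.48% of miRNA spots marked by the software as outlying or non-uniform. A probe counted as well above background where a share of at least 0.5 of its spots did. Each array was scaled to its 75th percentile, taken over the 618 probes well above background on every array, then raised to a floor of 13.5 and put on the log2 scale. The brightest probe stood for each miRNA. Tested were the 470 of 1881 miRNAs well above background on at least 3 of 4 arrays of either group, with lmFit and eBayes of limma 3.58.1, run in R 4.3.3 (two-sided, Benjamini-Hochberg, threshold 0.05), after a check on simulated data. Group differences of strands, and of pairs of strands within arrays, were compared by exact permutation tests over the 70 allocations of arrays. The exact permutation p-values of r and rho between strands came from all orders of the 8 arrays, without regard to group. Sequences came from RefSeq (GRCm38.p6), which holds 1608 of the 1881 array miRNAs.

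Named were the 4 strands, the 5 miRNAs most like each measured strand, and from each of the 4 pathway lists (not the marker lists) the members that passed or else the 2 with the smallest p. The strands, the lists and the tests were chosen with earlier results of these data known. Further software was Python 3.11.15 (pandas 2.3.3, numpy 2.4.6, matplotlib 3.10.9 for plots). Alternatives covered scaling, background, value table, summary per miRNA, floor, filter, test, slide column as a block and each array left out.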

Additional observations from a re-analysis of the deposited data

Results flagged for a closer look

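On LPS replicate 3 the log2 difference miR-675-3p minus miR-483-3p was 2.81, against 3.48, 3.46 and 3.57 in LPS replicates 1, 2 and 4. Its gap to the nearest of the others, 0.851 of the range of the LPS samples, was above Dixon's 95% critical value for 4 samples. It was 1 of 30 groups of values examined, and chance alone marks about 1 in 20 groups. The cesarean samples held 4.14, 3.61, 3.19 and 3.53.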

How the results depend on the processing

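Differences of miR-675-3p, miR-483-5p and miR-483-3p stayed below 0 and missed the threshold under all 25, 26 and 24 alternatives run. The alternatives of filter, intensity trend, slide column and exact test left the differences themselves unchanged, so they could not turn a sign. Either other floor also left those of miR-675-3p and miR-483-5p unchanged. They ranged from -0.81 to -0.11, -0.64 to -0.22 and -0.67 to -0.078, with limma adjusted p from 0.105 to 0.879, 0.252 to 0.618 and 0.268 to 0.952. miR-675-3p was at -0.81 without LPS replicate 1 (adjusted p = 0.105) and at -0.11 with the scanner's total gene signal. The median of all miRNAs was -0.057, and -0.20 without scaling between arrays or -0.19 with scaling to spike-in probes. Relative to it, miR-675-3p stood at -0.50, -0.50 and -0.48, miR-483-5p at -0.44, -0.44 and -0.42, and miR-483-3p at -0.21, -0.22 and -0.20. By the same measure, miR-675-3p ran from -0.80 without LPS replicate 1 to -0.10 with total gene signal. miR-483-3p ran from -0.64 without cesarean replicate 1 to 0.010 without cesarean replicate 3. The 23 miRNAs past the threshold became 14 with the percentile over all probes, 1 without scaling, 1 with spike-in scaling, 15 with normexp background, 8 with total gene signal, 15 where detection on all 8 arrays was asked for, 1 with the slide column as a block, and 3 (without cesarean replicate 3) to 79 (without LPS replicate 1) with 1 array left out. Members of the 4 pathway lists past the threshold, 1 in the report, numbered 0 without scaling, with spike-in scaling, with total gene signal and with the slide column, 2 with either other floor and with an intensity trend, 3 with quantile normalization, the value table, the mean of probes and no filter, and 0 to 6 with 1 array left out. The group difference of miR-675-3p minus miR-483-5p was 0.030 with quantile normalization, 0.029 with the mean of probes, 0.33 with total gene signal, and -0.59 to 0.17 with 1 array left out, where it was 0.17, 0.16 and 0.030 without LPS replicates 2, 3 and 4 and 0.0998 and 0.12 without cesarean replicates 2 and 4. That of miR-675-3p minus miR-483-3p was 0.19 with total gene signal, and that of miR-483-5p minus miR-483-3p ran from -0.49 to 0.26 with 1 array left out, with 0.26 without LPS replicate 1 and 0.22 without cesarean replicate 1. The r of miR-483-5p with miR-483-3p was -0.53 without cesarean replicate 3. The r of miR-675-3p with miR-483-3p ran from 0.50 to 0.93 and was past the threshold in 5 of 20 alternatives. Turned in sign were the r of miR-675-3p with miR-483-5p (0.068 without scaling, 0.036 with spike-in scaling, 0.30 without LPS replicate 1), the r of miR-483-5p with miR-483-3p (0.092 without LPS replicate 1), miR-296-5p (-0.055 without scaling, -0.032 with spike-in scaling, -0.011 with the mean of probes and -0.012 without cesarean replicate 3) and miR-145a-5p (-0.34 with total gene signal). The 5 miRNAs most like miR-675-3p were the least stable, with 0 to 5 of them remaining, against 1 to 5 for miR-483-5p and 2 to 5 for miR-483-3p. The cause of these changes was not tested. The labels pair no samples, so the slide column, which holds 1 array of each group, was the only pairing tried.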
